A study of Mus musculus with 75 samples.

Results

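The genes described here are 9 components of the complement system, the protein cascade of blood and tissue that marks microbes and damaged cells for removal. They are C1qa, C1qb, C1qc, C1ra, C2, C3, C4b, Cfb and Cfi, taken by symbol from a table of 55536 genes, and all 9 were among the 16221 genes with enough counts to be tested. RNA sequencing of the inferior lung lobe covered 75 male C57BL/6JRj mice, with 10 control mice (CTRL) and mice given bleomycin once into the trachea (BLEO-IPF), terminated 7 (n = 10), 14, 21, 28 and 35 (n = 12 each) or 42 days later (n = 7). Animals were 12 to 14 weeks old, and BLEO-IPF mice were only assigned to a day if they had lost between 5% and 17% of their body weight by day 6. Sample titles call the controls saline mice, while the treatment text calls them untreated, and the name CTRL is used for them throughout. Lungs had been rinsed by lavage, which washes out cells lying free in the airspaces, before the lobe was taken. Each mouse gave 1 library, with total counts from 9240291 to 14665247, and all 6 days were compared with the same 10 CTRL mice.

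Complement can be started by C1q, a recognition molecule assembled from the chains encoded by C1qa, C1qb and C1qc and made in tissues mainly by macrophages. Its partner protease C1r activates a second one, C1s, which cuts C4 and C2. The products form the enzyme that cuts C3, the central component of all routes of activation. Factor B, encoded by Cfb, amplifies C3 cleavage in the alternative pathway, whereas factor I, encoded by Cfi, is a protease that inactivates the cut forms of C3 and C4. The liver supplies most of these proteins to the blood, and lung epithelium, fibroblasts and macrophages also make some of them.

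In GRCm38, the C1q genes form a cluster on the minus strand of chromosome 4, with C1qb at 136880129 to 136886187, C1qc at 136889804 to 136893065 and C1qa at 136895917 to 136898803. A second cluster on the minus strand of chromosome 17 holds C4b at 34728380 to 34743882, Cfb at 34856374 to 34862518 and C2 at 34862604 to 34898265, and C3 lies elsewhere on that chromosome and strand at 57203970 to 57228136. C1ra (chromosome 6, 124512405 to 124523443) and Cfi (chromosome 3, 129835884 to 129875332) are on plus strands. All are annotated as protein-coding, and a count stands for reads over their exons. The annotation also lists a read-through gene, Gm20547, which shares 79.5% of the exon bases of Cfb and 42.8% of those of C2 on the same strand and had 0 counts in every library. Reads in the shared bases may therefore have been left uncounted, and the levels of Cfb and C2 are uncertain. Exact copies of 75 bases occurred in another gene for 42.4% of positions in C1ra (mainly in C1rb) and 22.7% in C4b (C4a), and for none in the C1q genes, C3 and Cfi. C2 also shares 161 exon bases (4.16%) with Zbtb12 on the opposite strand, whose counts came to 42.6% of those of C2, and the strand setting of the counting is not given in the sources used here.

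The 250 bases before the transcription start are shown for C1qb, the component with the largest increase, and for C3, an abundant component with a small one. They are RefSeq sequences of GRCm38.p6 on the minus strand, 5′ to 3′, at chr4:136886201-136886450 for C1qb and chr17:57228137-57228386 for C3. The RefSeq start of C1qb lies 13 bases from that of the annotation used for counting. Of the other components, C1qc and C1ra have an entry whose bases overlap an annotated exon, and C1qa, C2, C4b, Cfb and Cfi are named only. Capitals mark matches to searched motifs on either strand.
C1qb: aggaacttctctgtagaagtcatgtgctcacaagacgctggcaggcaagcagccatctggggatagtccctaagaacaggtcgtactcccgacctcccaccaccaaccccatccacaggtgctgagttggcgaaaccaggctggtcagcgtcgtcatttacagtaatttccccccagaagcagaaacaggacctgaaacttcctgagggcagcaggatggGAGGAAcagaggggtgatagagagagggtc
C3: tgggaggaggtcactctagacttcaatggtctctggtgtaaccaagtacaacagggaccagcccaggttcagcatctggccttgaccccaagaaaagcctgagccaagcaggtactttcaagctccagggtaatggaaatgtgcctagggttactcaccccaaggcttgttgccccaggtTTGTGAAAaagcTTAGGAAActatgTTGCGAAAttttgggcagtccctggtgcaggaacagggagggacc
In the C1qb sequence the capitals are a match to the core of the PU.1 site (GAGGAA), 30 to 25 bases before the start. In C3 they are 3 matches to the C/EBP pattern TTNNGNAA, at 70 to 63, 58 to 51 and 45 to 38 bases before the start, the last on both strands, with no overlap between motifs. Among 32851 upstream sequences of the same length, 23.3% held the PU.1 core and 36.8% the C/EBP pattern, and 2.62% held the C/EBP pattern at 3 or more positions. The GAS (TTCNNNGAA), ISRE and NF-kB patterns had no match in either sequence and occurred in 7.02%, 2.98% and 0.356% of all upstream sequences. A match is a run of letters and not a measured binding site.

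The first question was how the components changed after BLEO. Fewer of them were called upregulated on days 35 and 42 than on the earlier days, and none was downregulated against CTRL on any day. Their log2 fold changes ran from 0.28 to 3.33 on day 14 and from -0.14 to 1.60 on day 42. At days 7 and 14 all 9 were upregulated by edgeR's quasi-likelihood test (Benjamini-Hochberg adjusted p below 0.05), when 24.8% and 32.4% of all tested genes were. Of the 9, the later days had 8 (day 21, all genes 28.3%), 9 (day 28, 24.1%), 7 (day 35, 16.9%) and 4 (day 42, 13.7%). C1qa, C1qb, C1qc and Cfi were upregulated on all 6 days, as were 8.33% of tested genes. These shares are given for scale only, since the 9 were chosen with earlier results of these data known. The median log2 fold change (log2FC) of the 9 was 1.45 on day 7 and 1.76 on day 14, then 1.53, 1.34, 0.88 and 0.96, beside a median over all tested genes between -0.0024 and 0.02 on these days.

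**Figure D1:**
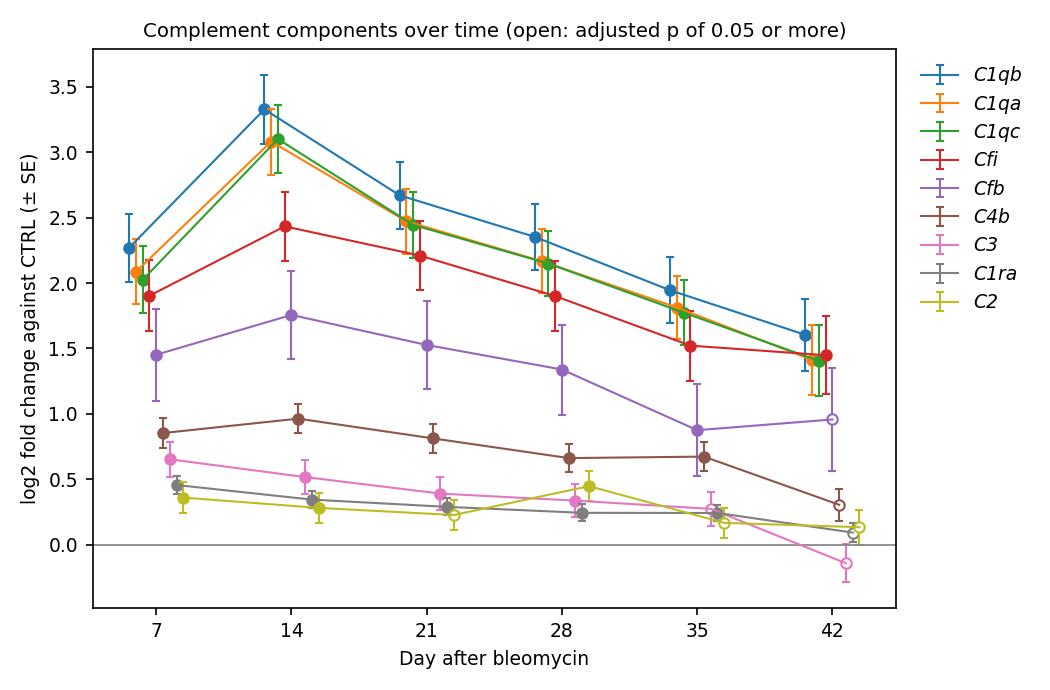
Log2 fold change against CTRL with its standard error (vertical axis) on each day after BLEO (horizontal axis) for the 9 components, with filled points where the adjusted p was below 0.05. The C1q chains and Cfi lie highest with a peak on day 14, Cfb follows, and C4b, C3, C1ra and C2 stay below 1.

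C1q chains had the largest log2FC of the components on days 7 to 35. C1qb, the B chain, had 25.2, 30.97 and 38.8 CPM (counts scaled to a common library size; lowest, median and highest of the 10 CTRL mice), 100.5, 141 and 215 CPM on day 7 and 160.1, 283 and 605 CPM on day 14. On day 42 it had 56.1, 87.5 and 148 CPM. The BLEO-IPF mouse with the least C1qb on any day was thus above the highest CTRL mouse. C1qb log2FC was 2.27 (SE 0.26, adjusted p = 9.35e-11 by edgeR) on day 7 and 3.33 (SE 0.27, adjusted p = 5.80e-17) on day 14, a 10.0-fold difference, and 1.60 (SE 0.27, adjusted p = 9.22e-06) on day 42.

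C1qa, the A chain, was at 27.5, 30.6 and 36.6 CPM in CTRL mice, 135, 233 and 512 CPM on day 14 and 54.1, 72.7 and 121 CPM on day 42. C1qc, the C chain, was at 22.9, 27.3 and 31.3 CPM in CTRL mice, 116, 201.5 and 417 CPM on day 14 and 41.8, 65.6 and 111 CPM on day 42. For both, as for C1qb, all BLEO-IPF mice of every day lay above all CTRL mice. C1qa log2FC was 3.08 (SE 0.25, adjusted p = 1.68e-16 by edgeR) on day 14 and 1.41 (SE 0.26, adjusted p = 4.34e-05) on day 42. C1qc log2FC was 3.10 (SE 0.26, adjusted p = 3.52e-16) on day 14 and 1.41 (SE 0.27, adjusted p = 7.06e-05) on day 42.

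**Figure D2:**
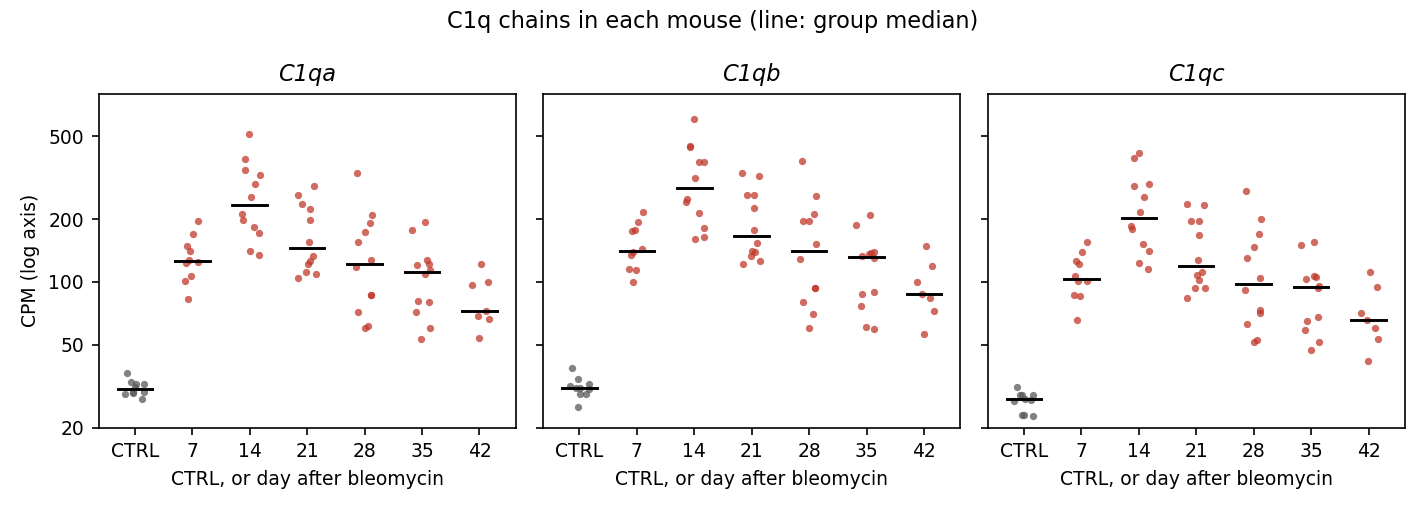
CPM of C1qa, C1qb and C1qc (vertical axis, logarithmic) in each mouse (points) of the CTRL group and of each day after BLEO (horizontal axis), with the group median as a line. No BLEO-IPF mouse overlaps the CTRL mice, the medians are highest on day 14, and the mice of a BLEO day are spread more widely than CTRL mice.

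In C1q levels, BLEO-IPF mice differed more among themselves than CTRL mice on every day. The coefficient of variation of C1qb CPM was 11.4% in CTRL, 25.02% on day 7, 43.9% on day 14 and 58.8% on day 28. This did not hold for all components, since that of C4b was 16.4% in CTRL and 9.94% on day 14. On day 28 C1qb ranged from 59.9 CPM in mouse 3 to 379 CPM in mouse 5. The ratios between the chains varied less among mice than their levels did. The ratio of C1qa to C1qb counts had group medians between 0.851 and 0.981, with single mice from 0.769 to 1.18. That of C1qa to C1qc had group medians between 1.16 and 1.22, with single mice from 0.878 to 1.37. The ratio of C1qb to C1qc had a median of 1.16 in CTRL mice (range 1.07 to 1.34) and group medians from 1.297 to 1.403 in BLEO-IPF mice, with overlapping ranges, and was not tested.

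When the 7 groups were ordered by mean log2 CPM, each C1q chain ran upward from CTRL through days 42, 35, 28, 7 and 21 to day 14. Of the 6 steps between neighbours in that order, only the first, from CTRL to day 42, passed the test. The fitted log2FC of the step from day 28 to day 7 was negative, at -0.08 (C1qa), -0.08 (C1qb) and -0.12 (C1qc). The steps between neighbouring BLEO days had adjusted p from 0.109 to 0.864 by edgeR, and these contrasts called few or many of all tested genes, from 0.0% (days 42 and 35), 1.27% (35 and 28) and 1.03% (21 and 14) to 17.9% (28 and 7) and 13.9% (7 and 21). The fall over the whole interval did pass it. On day 42 against day 14 the log2FC was -1.67 (SE 0.27, adjusted p = 1.91e-06) for C1qa, -1.72 (SE 0.28, adjusted p = 2.28e-06) for C1qb and -1.70 (SE 0.27, adjusted p = 2.27e-06) for C1qc, and every day-42 mouse lay below every day-14 mouse. At day 42 the log2FC against CTRL was still 45.8%, 48.2% and 45.3% of its day-14 value.

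Macrophage markers moved over the same days. Of 8 general macrophage markers (Cd68, Adgre1, Csf1r and others), 5, 6, 7, 7, 7 and 6 were upregulated on days 7 to 42, and 1 was downregulated on day 7. Their summed level was 5224 to 6530 CPM in CTRL mice, then 3688 to 6694, 4342 to 9116, 5686 to 11655, 6020 to 10889, 6467 to 11642 and 6314 to 12089.5 CPM on the successive days. That sum is mostly Lyz2, with a mean of 5537 CPM in CTRL mice and a log2FC of 0.07 on day 14 (adjusted p = 0.704 by edgeR), whereas Cd68 had a log2FC of 2.21 and Fcgr1 of 3.05 on that day. Of 8 markers of monocyte-derived and interstitial macrophages (Spp1, Apoe, Trem2 and others), 6, 7, 7, 7, 6 and 6 were upregulated and 1 was downregulated on each day from day 21, and their summed level was 1013 to 1405 CPM in CTRL mice, then 1847 to 2871, 2747 to 12472, 2597 to 9207, 1662 to 7037, 1301 to 4094 and 1309 to 4944 CPM. Of 7 markers of resident alveolar macrophages, 1, 2, 4, 3, 2 and 2 were upregulated and 1, 3, 3, 2, 2 and 1 downregulated, with summed levels of 219 to 295 CPM in CTRL mice and 115 to 262 CPM on day 14. No marker of these lists was at 0 in a whole group. Their part in the C1q result was not tested, and in whole lung a change in the number of cells of a type and a change in RNA per cell cannot be told apart.

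The proteases and substrates of the classical pathway changed far less. C1ra, which encodes C1r, was at 60.1, 61.5 and 68.2 CPM in CTRL mice and 71.2, 85.1 and 102 CPM on day 7. On day 14 it was at 67.2, 76.02 and 98.4 CPM, and on day 42 at 56.8, 66.2 and 75.1 CPM. All 10 mice of day 7 and 11 of 12 on day 14 lay above all CTRL mice, whereas the day-42 mice overlapped them. C1ra log2FC was highest on day 7, at 0.46 (SE 0.07, adjusted p = 7.89e-08 by edgeR), and was 0.34 on day 14 and 0.24 on day 35. On day 42 C1ra was not upregulated (log2FC 0.09, SE 0.07, adjusted p = 0.379), and against day 14 it fell by 0.25 on the log2 scale (SE 0.07, adjusted p = 0.00456).

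C4b encodes complement C4, from which the classical pathway enzyme is built. It was at 203, 249.8 and 328 CPM in CTRL mice, 405, 497 and 567 CPM on day 14 and 227, 335 and 385 CPM on day 42. The CTRL and day-14 mice did not overlap, and 4 of 7 mice on day 42 were above all CTRL mice. C4b log2FC was 0.85 (SE 0.11, adjusted p = 4.47e-09 by edgeR) on day 7 and 0.96 (SE 0.11, adjusted p = 1.16e-11) on day 14, a 1.95-fold difference, and all 7 mice of day 42 were below all mice of day 14 (log2FC -0.66, SE 0.12, adjusted p = 2.32e-05). On day 42 the log2FC against CTRL was 0.31 (SE 0.12, adjusted p = 0.0571), and it passed the test without CTRL mouse 3 or 4 or without day-42 mouse 2 or 7 (adjusted p = 0.0303 to 0.0488) and in a fit of these groups alone (adjusted p = 0.0307).

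C2, the protease that joins C4 in that enzyme, was at 9.98, 12.8 and 15.5 CPM in CTRL mice, 12.0, 16.6 and 19.8 CPM on day 7 and 12.1, 16.5 and 25.5 CPM on day 28. The groups overlapped on every day. C2 log2FC on days 7, 14 and 28 was 0.36 (adjusted p = 0.0114 by edgeR), 0.28 (0.0304) and 0.45 (0.00127), each with an SE of 0.12, and it did not pass the test on days 21, 35 and 42 (adjusted p = 0.0923, 0.291 and 0.494). The day-14 call was lost without CTRL mouse 1, 2, 6 or 9 or day-14 mouse 2, 6 or 7 (adjusted p = 0.0501 to 0.0654), with upper quartile scaling (0.0583) and with no filter on low counts (0.0644), and the day-21 comparison passed in a fit of these groups alone (0.0205). On day 42 against day 14 the log2FC was -0.15 (SE 0.13, adjusted p = 0.387).

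C3, the central component, stood highest on day 7. It was at 667, 844 and 1066 CPM in CTRL mice, 949.7, 1382 and 1640.2 CPM on day 7, 1046, 1198 and 1563 CPM on day 14 and 629, 704 and 1035 CPM on day 42. On day 7 only mouse 3 lay within the CTRL range, and on day 42 the mice lay within or below it. C3 log2FC on days 7, 14 and 21 was 0.65 (adjusted p = 4.74e-05 by edgeR), 0.52 (3.72e-04) and 0.39 (0.00771), each with an SE of 0.13. On day 42 it was -0.14 (SE 0.15, adjusted p = 0.512), the only negative log2FC among the components, and every day-42 mouse lay below every day-14 mouse (log2FC -0.66, SE 0.14, adjusted p = 2.81e-04). The day-28 call (log2FC 0.34, SE 0.13, adjusted p = 0.0269) was lost without CTRL mouse 1, 6 or 7 or day-28 mouse 1 or 10 (adjusted p = 0.0523 to 0.0773) and with no filter on low counts (0.0523).

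Cfb, which encodes factor B, had few counts, 938 over all libraries. It was at 0.104, 0.503 and 0.761 CPM in CTRL mice (1 to 11 counts), 0.648, 1.32 and 3.48 CPM on day 14 (7 to 35 counts) and 0.345, 0.694 and 1.88 CPM on day 42. Mouse 1 of day 35 had no Cfb count, which at its depth allows up to 0.288 CPM (a floor of 3 counts). On day 14, 11 of 12 mice lay above all CTRL mice, and on day 42, 3 of 7 did. Cfb log2FC was 1.45 on day 7 (SE 0.35, adjusted p = 5.08e-04 by edgeR), 1.76 on day 14 (SE 0.34, adjusted p = 7.42e-06) and 1.34 on day 28 (SE 0.34, adjusted p = 0.00113).

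Later Cfb comparisons were close to the threshold. The day-35 call (log2FC 0.88, SE 0.35, adjusted p = 0.0498) was lost without CTRL mouse 2, 3, 7, 8, 9 or 10 or day-35 mouse 5, 6, 8, 9, 10 or 12 (adjusted p = 0.0559 to 0.148) and with no filter on low counts (0.106). On day 42 the Cfb log2FC of 0.96 (SE 0.39, adjusted p = 0.0638 by edgeR) passed the test without CTRL mouse 5 or 6 or day-42 mouse 2 or 7 (adjusted p = 0.0402 to 0.0496). Against day 14 it was -0.80 on day 42 (SE 0.35, adjusted p = 0.0669), which passed without day-14 mouse 6 or day-42 mouse 1 or 5 (adjusted p = 0.0251 to 0.0427).

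Cfi, which encodes the inactivating protease factor I, was low but changed nearly as much as the C1q chains. It was at 0.409, 0.793 and 1.07 CPM in CTRL mice (4 to 15 counts), 2.29, 3.93 and 7.39 CPM on day 14 (30 to 80 counts) and 1.74, 2.07 and 3.19 CPM on day 42. CTRL and BLEO-IPF mice did not overlap on days 7, 14, 21, 28 and 42, and on day 35 2 of 12 mice fell within the CTRL range. Cfi log2FC was 1.90 on day 7 (SE 0.27, adjusted p = 3.44e-08 by edgeR), 2.43 on day 14 (SE 0.26, adjusted p = 2.58e-12) and 1.45 on day 42 (SE 0.30, adjusted p = 1.75e-04). From day 14 to day 42 it fell by 0.98 on the log2 scale (SE 0.27, adjusted p = 0.00277), with 5 of 7 day-42 mice below all day-14 mice, and it kept 59.5% of its day-14 log2FC.

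**Figure D3:**
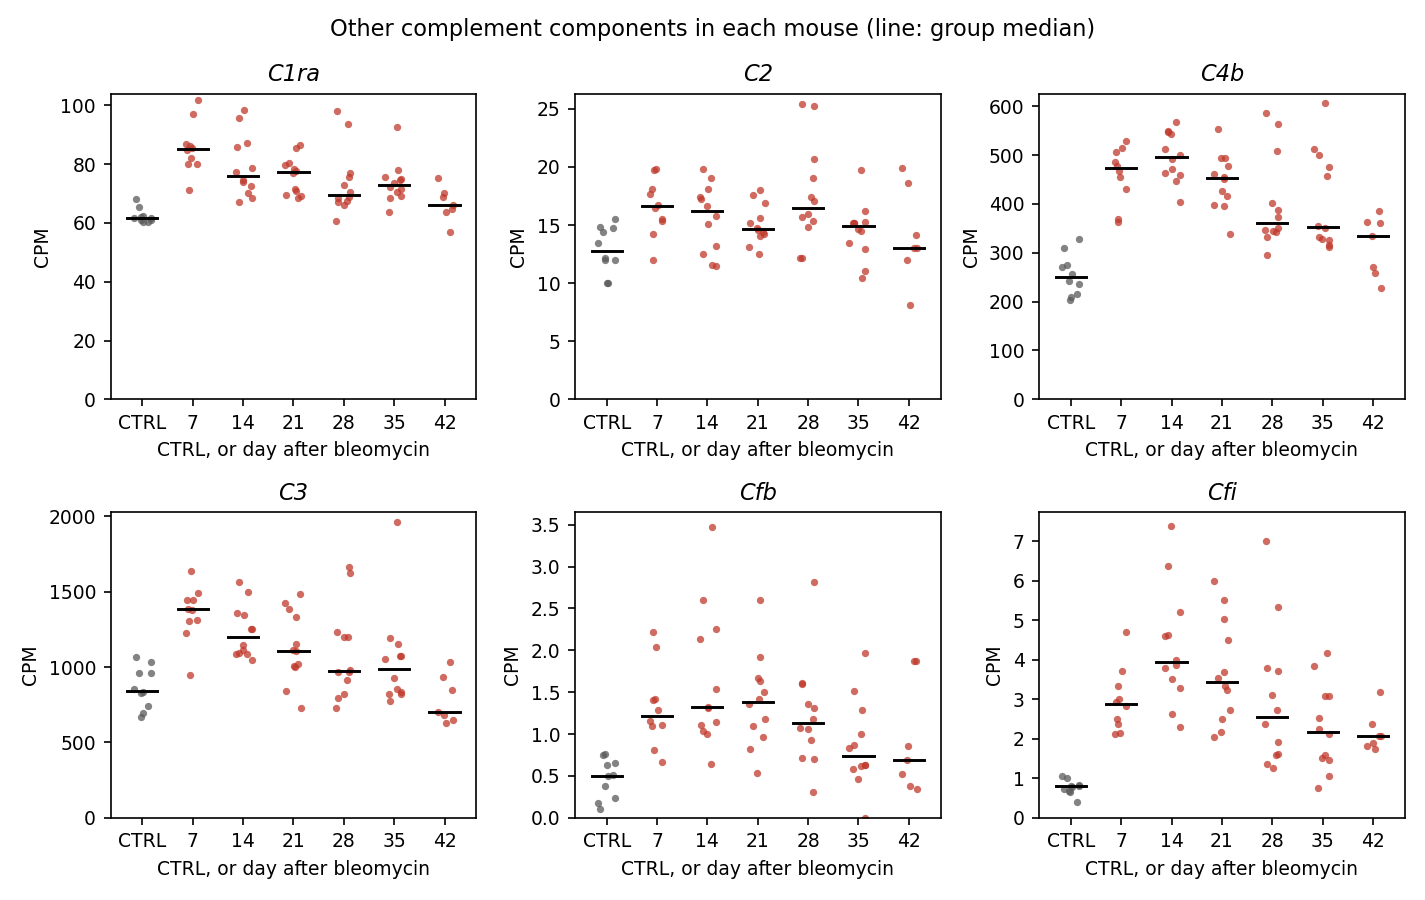
CPM of C1ra, C2, C4b, C3, Cfb and Cfi (vertical axes, each from 0) in each mouse (points) of the CTRL group and of each day after BLEO (horizontal axis), with the group median as a line. Cfi of CTRL mice lies below nearly all BLEO-IPF mice, C4b is near 500 CPM on days 7 and 14, and C3 on day 42 lies within or below the CTRL range.

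Counted over mice without a test, all mice of a day lay above all CTRL mice for 6, 5, 6, 4, 3 and 4 components from the earliest to the latest day. The share of tested genes with such a separation was 7.39%, 9.46%, 6.84%, 2.1%, 2.43% and 4.22% in the same order. The C1q chains were in this set on every day. On day 42 against day 14, 7 of the 9 components were lower and none higher (18.8% of tested genes were lower and 15.2% higher), and for 5 of them, the C1q chains, C3 and C4b, the groups did not overlap (2.68% of tested genes). Outside the C1q chains, the order of group levels was resolved no further. For Cfb and Cfi the step from CTRL to day 35, the BLEO day with the lowest mean log2 CPM, was the only neighbouring step that passed the test. The fitted log2FC of Cfi against CTRL was slightly lower on day 42 (1.45) than on day 35 (1.52). No neighbouring step passed for C1ra, C2, C3 or C4b. Their orders also set days 42 and 28 (0.869% of tested genes called), 28 and 21 (0.727%), 35 and 21 (18.3%) and 14 and 7 (17.0%) side by side.

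Levels can be compared between components only per length of transcript, here as mean CPM per kilobase of exon. In CTRL mice C3 was at 168 ± 26.8 (SD, n = 10), C4b at 44.7 ± 7.32, C1qa at 29.9 ± 2.53 and C1qb at 28.8 ± 3.27 CPM per kilobase. C1ra followed at 20.9 and C1qc at 13.9, and C2 (5.82), Cfb (0.811) and Cfi (0.351) were lowest. On day 14 C1qb was at 289 ± 127 (SD, n = 12), C1qa at 253 ± 109, C3 at 241 ± 33.4, C1qc at 119 ± 52.3 and C4b at 87.2 ± 8.66 CPM per kilobase. Mean levels of 2 C1q chains were thus above that of C3 on day 14, within the spread between mice, and on all other days C3 was highest. By the longest transcript, Cfi was above Cfb in every group, C1qc was above C1ra in CTRL mice, and C1qc was above C4b on the BLEO days other than day 14, so these orders depend on the length used. On day 14 C1qc was above C4b by both lengths. The exon lengths of Cfb and C2 leave out the bases shared with Gm20547, and the longest-transcript lengths do not. With those bases kept in the exon length, Cfi was also above Cfb (0.351 and 0.166 CPM per kilobase in CTRL mice). Sequence that C1ra and C4b share with other genes was not left out of any length, so their places in the order are uncertain.

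Within a group, mice with more of a C1q chain also had more of the others. The deviations of log2 CPM from the group means over 75 mice, each 1 library, had Pearson r of 0.99 for C1qa with C1qb, 0.98 for C1qa with C1qc and 0.99 for C1qb with C1qc. Cfi followed the C1q chains with r of 0.74 to 0.77, and C4b with 0.61. C3 and C4b deviated together with r of 0.70. C2 did not go with the C1q chains (r from -0.03 to 0.01) and had its highest r, 0.49, with C1ra.

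**Figure D4:**
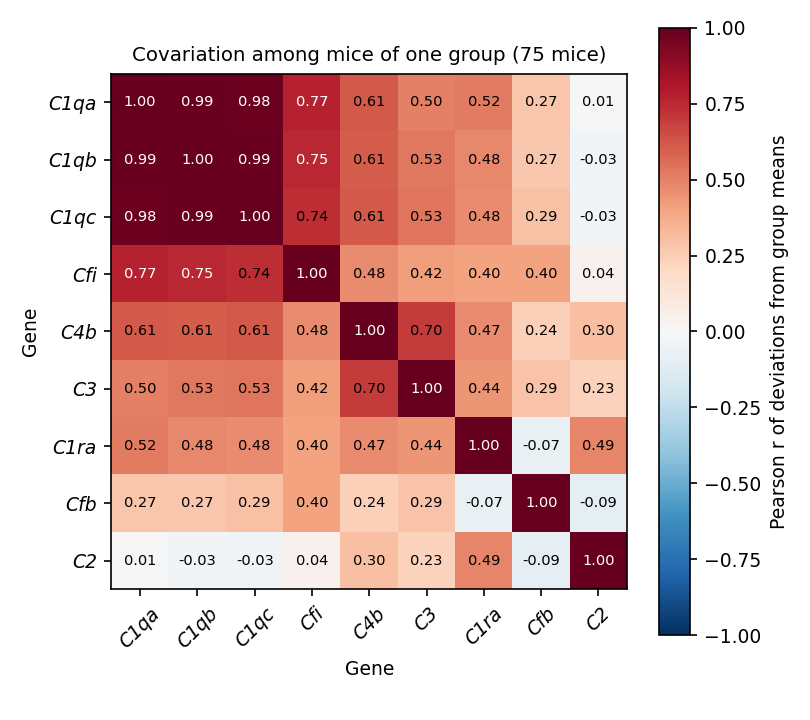
Pearson r between components (both axes), computed over 75 mice from deviations of log2 CPM from the group means, on a scale from -1 to 1. The C1q chains form a block near 1, Cfi is closest to them, and C2 and Cfb have low values with most others.

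The genes outside the 9 whose deviations were most like those of a component differed by component. For C1qa they were Cotl1 (r = 0.931), Serpine2 (0.911) and Mmp14 (0.908), for C1qb Cotl1 (0.920), Gusb (0.916) and Mmp14 (0.914), and for C1qc Man2b1 (0.915), Serpine2 (0.905) and Cotl1 (0.903). Cotl1 encodes an actin-binding protein, Mmp14 a membrane-bound metalloproteinase, and Gusb and Man2b1 lysosomal enzymes. Cfi was nearest to Mmp14 (0.767), Dok2 (0.763) and Cxcl16 (0.761). C1ra was nearest to C1s1 (0.743), Cd52 (0.686) and Serping1 (0.686), of which C1s1 encodes the protease C1s and Serping1 the C1 inhibitor.

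C3 was nearest to Adgrd1 (r = 0.783), Prg4 (0.766) and Abcb1b (0.699), and C4b to Cilp (0.682), Aebp1 (0.655) and the collagen gene Col3a1 (0.637). For C2 the nearest were Gpc3 (0.672), Upk3b (0.603) and Rarres2 (0.591), and for Cfb Msln (0.572), Nrip3 (0.567) and Cdh3 (0.549). Upk3b and Msln are 2 of the 4 mesothelial markers, whose median r was 0.476 with C2, 0.484 with C3, 0.240 with Cfb and between -0.121 and -0.0839 with the C1q chains. Median r with the 8 macrophage markers was 0.761 to 0.770 for the C1q chains, 0.605 for Cfi, 0.434 for C4b and -0.0757 for C2. Single markers of that list had r from -0.171 to 0.911 with the C1q chains. For these chains, median r was 0.568 to 0.588 with the monocyte-derived and interstitial list. With the resident alveolar list it was -0.283 to -0.255. All these are descriptions over the same libraries, in which the shares of cell types and the depth are common to all genes.

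Markers of other lung cells also moved. Of 8 markers of alveolar type 2 (AT2) cells, 6 were downregulated on day 14 and none on day 42, with summed levels of 22550 to 27528 CPM in CTRL mice, 6418 to 23627 CPM on day 14 and 24273 to 30499.7 CPM on day 42. All 5 club and ciliated cell markers were downregulated on days 14, 21 and 28. Of 8 fibroblast markers 3 were upregulated and 3 downregulated on day 14, and the mesothelial sum was 66.9 to 217 CPM in CTRL mice and 159 to 405 CPM on day 14, with 1 of 4 markers upregulated. The 6 hepatocyte markers summed to between 1.03 and 31.8 CPM in any library, and Apoc3 was at 0 in all mice of days 14, 21 and 42. Their part in the levels of the components was not tested.

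The remaining complement genes showed how far the changes extended. Of 43 other genes of the system, 33 were tested, and 12, 14, 16, 17, 11 and 8 were upregulated and 4, 10, 10, 7, 5 and 3 downregulated from the earliest to the latest day. The share of all tested genes that was downregulated was 21.0%, 29.9%, 25.8%, 19.2%, 13.1% and 11.0% in the same order, and the upregulated shares are given above. Their median log2FC lay between 0.13 and 0.35. Of the receptors, 6, 7, 7, 7, 5 and 5 of 9 were upregulated on the successive days, beside 2, 3, 4, 4, 1 and 0 of 5 tested initiators, and C3ar1, the receptor for the C3a fragment, had a log2FC of 3.11 on day 14. Of the 6 membrane regulators, which protect host cells, 0, 0, 0, 1, 2 and 0 were upregulated and 1, 4, 3, 2, 1 and 0 downregulated on the successive days. The 10 genes not tested, among them C9, C8a, C8b, Mbl2 and C1rb, had at most 13 counts in any library.

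Initiators of the lectin pathway changed in opposite directions. Fcna, which encodes ficolin A, was at 0.477, 1.08 and 1.81 CPM in CTRL mice and 2.06, 3.76 and 33.4 CPM on day 14 (log2FC 3.02, SE 0.52, adjusted p = 9.46e-07 by edgeR), with no overlap. Mbl1, which encodes a mannose-binding lectin, was at 1.62, 2.45 and 3.36 CPM in CTRL mice and 0.200, 0.714 and 1.60 CPM on day 14, where all mice lay below all CTRL mice, as in 6.15% of tested genes (log2FC -1.54, SE 0.25, adjusted p = 1.64e-07). Its day-35 call (log2FC -0.62, adjusted p = 0.0377) was lost without CTRL mouse 7, 8, 9 or 10 or day-35 mouse 2, 6 or 9 (adjusted p = 0.0506 to 0.0787) and with no filter on low counts (0.0907). C4a, the close copy of C4b, was at 0.209, 0.690 and 1.39 CPM in CTRL mice and 0.648, 1.09 and 1.89 CPM on day 14 (log2FC 0.83, SE 0.23, adjusted p = 0.00122), and reads of the copies may not be told apart.

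Among alternative pathway genes, Cfp, which encodes properdin, was at 11.6, 13.1 and 17.1 CPM in CTRL mice and 22.2, 30.8 and 54.4 CPM on day 14, without overlap (log2FC 1.30, SE 0.16, adjusted p = 2.53e-10 by edgeR). Cfd, which encodes factor D and is known from fat tissue, ranged from 2.62 to 32.9 CPM in CTRL mice, and its fitted means on some days rested on 1 mouse. On day 28 mouse 10 had 1150.0 CPM beside a median of 0.462 CPM, and the Cfd log2FC of 2.63 (adjusted p = 0.0255) was -1.90 (adjusted p = 0.0596) without it. On day 7 mouse 8 had 593 CPM beside a median of 6.37 CPM, and the log2FC of 2.03 (adjusted p = 0.0853) was -1.12 (adjusted p = 0.356) without it. On day 21 Cfd was downregulated (log2FC -3.64, SE 1.20, adjusted p = 0.00805), with 10 of 12 mice below all CTRL mice. On day 42 6 of 7 mice lay below all CTRL mice (log2FC -3.91, SE 1.53, adjusted p = 0.0511), and this passed with DESeq2 (0.00273), the replicate block (0.0231) or a fit of these groups alone (1.44e-05), and without CTRL mouse 2 (0.0459) or day-42 mouse 3 (0.0433). Day-28 mouse 10 also had 37.4 CPM of Fcna, whose log2FC on that day was 2.17 (adjusted p = 5.06e-04) with it and 0.97 (adjusted p = 0.0613) without it. Among the 9 components, leaving out day-28 mouse 10 changed only the call of C3 on that day.

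Of the terminal genes, Hc, which encodes C5, was at 469, 502 and 616 CPM in CTRL mice, 48.9, 305 and 990.2 CPM on day 14 and 661, 915 and 1013 CPM on day 42. Day-14 mice lay on both sides of the CTRL range, and all mice of day 42 lay above it. Hc log2FC was -0.65 on day 14 (SE 0.28, adjusted p = 0.0398 by edgeR), a call lost without CTRL mouse 1, 3, 4 or 5 or day-14 mouse 1, 2, 3, 4, 7 or 8 (adjusted p = 0.0501 to 0.0804), with no filter on low counts (0.0725) and in a fit of these groups alone (0.124). Against CTRL, Hc was not called on day 42 (log2FC 0.70, SE 0.32, adjusted p = 0.102 by edgeR). That comparison passed in a fit of these groups alone (2.98e-06). From day 14 to day 42 Hc rose, opposite to 7 of the 9 components (log2FC 1.35, SE 0.31, adjusted p = 4.51e-04).

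Of the soluble regulators, Clu, which encodes clusterin, an inhibitor of the terminal complex, was at 187, 200.4 and 249 CPM in CTRL mice and 331, 424 and 544 CPM on day 14 (log2FC 1.08, SE 0.12, adjusted p = 1.27e-11 by edgeR). Vtn, which encodes vitronectin, was at 17.0, 21.5 and 24.4 CPM in CTRL mice and 6.09, 11.0 and 13.9 CPM on day 14 (log2FC -0.98, SE 0.13, adjusted p = 6.64e-10). Neither overlapped between these groups. Cd55b, a membrane regulator with few counts, was at 0.398, 0.777 and 1.24 CPM in CTRL mice (5 to 18 counts). On day 14 it was at 0, 0.405 and 0.853 CPM (0 to 9 counts), with a log2FC of -1.05 (SE 0.29, adjusted p = 0.00136). Antisense genes had counts equal to 1.89% of those of Fcna, 1.08% of Cd55b and 0.001% of Hc.

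Among receptors, Vsig4, which encodes the macrophage receptor for C3b, was at 0, 0.239 and 0.859 CPM in CTRL mice and 0.556, 2.03 and 19.9 CPM on day 14, with 9 of 12 mice above all CTRL mice (log2FC 4.23, SE 0.62, adjusted p = 2.24e-08 by edgeR). On day 42 it was not upregulated (log2FC 1.00, SE 0.80, adjusted p = 0.380). Cr2, a C3d receptor of B cells, was at 8.35, 11.5 and 17.1 CPM in CTRL mice and 0.840, 5.72 and 15.6 CPM on day 14 (log2FC -1.03, SE 0.31, adjusted p = 0.00300), with 9 of 12 mice below all CTRL mice. Its call on day 21 (log2FC -0.74, adjusted p = 0.0369) was lost without CTRL mouse 4, 5 or 9 or day-21 mouse 1, 4, 5, 9 or 10 (adjusted p = 0.0504 to 0.0682) and with no filter on low counts (0.0681). Of the B and plasma cell markers, 3 of 4 tested were downregulated on days 7, 14 and 21 and 0 on days 28, 35 and 42. The list also had 1 upregulated marker on each day from day 14 to day 42.

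**Figure D5:**
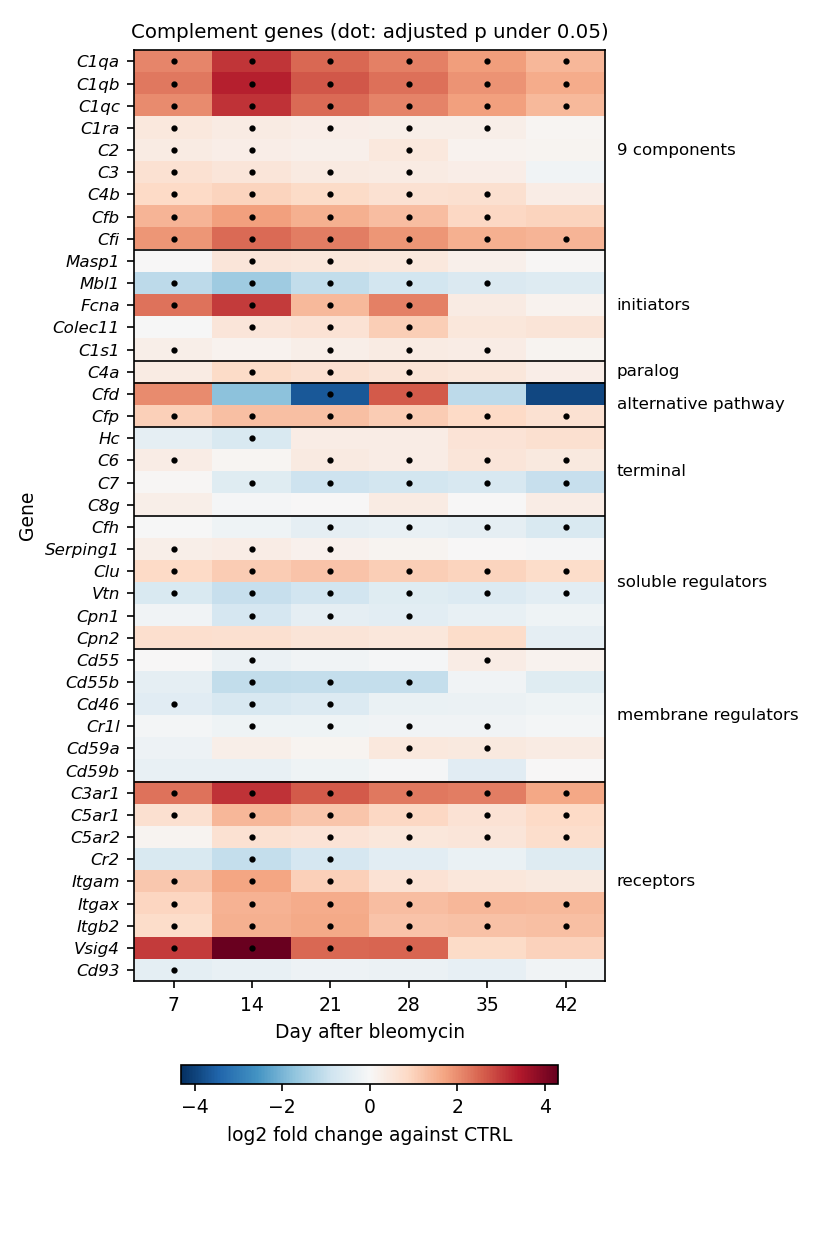
Log2 fold change against CTRL (color) of the 9 components and 33 other complement genes (rows, grouped by role) on each day after BLEO (columns), with a dot where the adjusted p was below 0.05. The C1q chains, Cfi, Fcna, C3ar1 and Vsig4 stand out in red on day 14, and the red cell of Cfd on day 28 rests on 1 mouse.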

How the data were processed

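RNA of the inferior lung lobe of 75 mice was made into single-end, strand-preserving poly(A) libraries, and the authors aligned the reads with STAR 2.7.0f and deposited whole-number counts per gene for Ensembl release 96 (GRCm38). The counting program, its strand setting and its handling of multi-mapping reads are not given in the sources used here. Totals of 9240291 to 14665247 counts per library set the precision of low genes, and floors cover counting error only. Groups came from the sample labels.

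Of 55536 genes, 38610 had a count and 16221 passed filterByExpr. Differences were tested with edgeR 4.0.16 (quasi-likelihood F test, TMM factors, 1 mean per group over all 75 libraries, R 4.3.3), adjusted after Benjamini-Hochberg over the tested genes at 0.05. The authors' methods used DESeq2, which was run as an alternative (1.42.0), beside other scalings and filters, a fit of the compared groups alone, a replicate block, a log2FC minimum of 0.5, the longest-transcript length, rank correlations and the removal of each mouse in turn. CPM used TMM-scaled totals. Correlations used log2 CPM with a prior count of 2 after subtraction of group means. On data simulated for day 14 against CTRL, the test recovered 91 of 100 genes changed by 1 and 99 of 100 changed by 2 on the log2 scale. It made 11 false calls, with 16116 genes tested in all, the changed ones included. The changed genes were drawn from those with a mean above 1 CPM, so recovery among lower genes was not covered. They were also far fewer than the genes called on day 14 in the real data.

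The 9 components, the lists and the motifs were chosen with earlier results of these data known, and the removal of single mice and the refits of neighbouring group levels were added after values were seen. Named genes were the components, the tested complement genes of each role group with the largest rise and the largest fall called on day 14, all genes of role groups with 2 members or fewer, and the 3 genes most correlated with each component. C3ar1 and the genes named for a count were chosen after their values were seen. Each library came from a separate mouse, and no pair within a group agreed within counting noise (lowest chi-square per degree of freedom 4.11). A further marker gene and a further motif that had been on these lists were taken off and are not reported here.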

Additional observations from a re-analysis of the deposited data

Results flagged for a closer look

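Single mice stood apart in 2 of 27 groups of 10 or fewer mice (CTRL and days 7 and 42, 9 components each), and chance alone gives about 1 in 20. C3 of mouse 3 on day 7, at 949.7 CPM, was the lowest of its group and far from the next mouse. Cfi of mouse 7 among the CTRL mice, at 0.409 CPM, was likewise the lowest of its group.

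The response on day 42 differed from that on day 14 by the direct edgeR contrast of these days for 7 components. The difference of the log2FC, day 42 minus day 14, was -1.67 for C1qa, -1.72 for C1qb, -1.70 for C1qc, -0.25 for C1ra, -0.66 for C3, -0.66 for C4b and -0.98 for Cfi.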

How the results depend on the processing

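No call of C1qa, C1qb, C1qc or Cfi changed under any alternative that could test it, nor without any 1 mouse, and the same held for C1ra except with a log2FC minimum of 0.5, which it did not reach on any day. Cfb and Cfi could not be tested with at least 10 counts in every library, where neighbouring group levels that differed numbered 3 in place of 5. Over the alternatives the count of upregulated components was 7 to 9 on day 7, 7 to 9 on day 14, 6 to 9 on day 21, 6 to 9 on day 28, 5 to 7 on day 35 and 3 to 5 on day 42, and no component reversed. Leaving out 1 mouse gave 9, 8 to 9, 8, 8 to 9, 6 to 7 and 4 to 6 components on these days and 7 to 8 fell from day 14 to day 42. Of the other complement genes, a log2FC minimum of 0.5 left 2, 4 and 3 downregulated on days 7, 28 and 35 (from 4, 7 and 5), and a fit of the compared groups alone gave 6 on day 42 (from 3). Cfd reversed with DESeq2 (-1.20 on day 7, -1.94 on day 28), with the replicate block (-0.31 and -1.63) and without mouse 8 of day 7 (-1.12) or mouse 10 of day 28 (-1.90), and Fcna on day 42 without mouse 5 (-0.11) or mouse 7 (-0.14). Leaving out 1 mouse gave log2FC from -1.12 to 2.21 (Cfd, day 7), -1.90 to 2.80 (Cfd, day 28) and -0.14 to 0.30 (Fcna, day 42). The cause was not tested beyond the mice named.

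Mice with the same replicate number in different groups did not deviate together (median r -0.00865 over 204 pairs, range -0.589 to 0.581, with 61 pairs over 0.1), and 9 of 75 libraries correlated best with their own number, so the numbers do not pair the mice. With the replicate block, 8 components in place of 7 fell from day 14 to day 42, the added one being Cfb (log2FC -0.86, adjusted p = 0.0473 by edgeR).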
